A study of Mus musculus with 15 samples.

Results

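Transcripts of 10 genes of cellular iron handling and ferroptosis were followed across berry treatments of 4T1 cells by bulk RNA-seq. The genes are the iron uptake genes Tfrc and Slc11a2, the storage genes Fth1, Ftl1 and Ncoa4, the exporter Slc40a1, the iron sensors Ireb2 and Aco1, and the lipid peroxidation genes Acsl4 and Gpx4. They were taken by symbol from a count table of 40402 genes, and all 10 were among the 17647 genes that reached 1 CPM (1 count per 1000000 counts of the library) in any library. 4T1 is a wild-type mouse mammary carcinoma line used as a model of triple-negative breast cancer, and every group consists of this 1 line in culture. Treatment began 24 h after seeding. Cells received an extract of blackberry (BLA) or of blueberry (BLU), or gold nanoparticles synthesized with the blackberry (BLA-A) or blueberry (BLU-A) extract, while the Untreated cells received none. The extracts were ethanol extracts of freeze-dried fruit powder. No group received gold without berry material, so gold and berry cannot be told apart in BLA-A and BLU-A.

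The deposited table has 3 columns for each of the 5 conditions. In every condition these columns differed by less than sampling noise (chi-square per degree of freedom 0.0951 to 0.475), so they were averaged and counted as 1 library. Each treatment is therefore represented by n = 1 and has no replicate check, and every interval below is a 95% interval that covers counting error only. Library totals ranged from 25613778 to 26956442 counts. The labels give each column a batch date of its own, so batch date cannot be told apart from column or, between conditions, from treatment. The epithelial markers Krt8, Krt18, Epcam and Cdh1 had at least 920 counts in every library. In contrast, Krt14 had 10 to 20 counts and Krt5 was at 0 in all 5 libraries. The erythroid genes Hba-a1 and Hbb-bs were at 0 in all 5 libraries, and among markers of iron-recycling macrophages Cd68 had 190 to 240 counts, Cd163 59 to 140, Adgre1 5 to 57 and Spic at most 1. The leukocyte genes Ptprc (5 to 40 counts) and Cd3e (0 to 4), the endothelial genes Pecam1 (24 to 60) and Cdh5 (10 to 18) and the fibroblast gene Col1a1 (24 to 48) were low, while Pdgfra had 2277 to 2783 counts. Of the receptors whose absence defines triple-negative tumours, Pgr had 5 to 36 counts, but Esr1 had 488 to 961 and Erbb2 601 to 1298. In BLA-A, scaling by total counts alone in place of the trimmed mean of M values (TMM) lowered the median log2 fold change of all genes by 0.17. That shift touches every BLA-A value below, and the values are given relative to the TMM scale.

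Cells take up transferrin-bound iron through the transferrin receptor, and the divalent metal transporter carries it out of the endosome. Iron not in use is stored in a ferritin shell of heavy and light chains, is released when NCOA4 delivers ferritin to lysosomes, and leaves the cell through ferroportin. The iron regulatory proteins, encoded by Aco1 and Ireb2, bind hairpins called iron-responsive elements when iron is scarce. Binding in a 5′ UTR blocks translation, and binding in the 3′ UTR of Tfrc protects the transcript from decay. Ferroptosis is a form of cell death driven by iron-dependent peroxidation of membrane lipids. ACSL4 supplies polyunsaturated lipids that are readily oxidized, and GPX4 reduces lipid hydroperoxides and so opposes this death.

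The hairpins are shown here because matches to the search pattern lay in the 5′ UTR of some members and in the 3′ UTR of Tfrc. The search, on the transcript strand of GENCODE M39 (GRCm39), asked for a C, 5 bases, CAGTGN with any last base but G, and 5 bases that pair with the first 5 (Watson-Crick or G-T pairs). Each 30-base window below is printed 5′ to 3′ with the 6-base loop in capitals. The 5′ UTR matches lay at chr19:9960095-9960124 (+ strand) in Fth1, at chr7:45109203-45109232 (− strand) in Ftl1 and at chr1:45964625-45964654 (− strand) in Slc40a1. The 4 matches of Tfrc lay in its 3′ UTR on the + strand, at chr16:32450036-32450065, chr16:32450415-32450444, chr16:32450480-32450509 and chr16:32450527-32450556, in that order.
Fth1: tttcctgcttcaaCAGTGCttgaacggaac
Ftl1: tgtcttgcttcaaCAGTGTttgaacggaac
Slc40a1: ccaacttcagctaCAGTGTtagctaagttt
Tfrc-1: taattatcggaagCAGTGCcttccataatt
Tfrc-2: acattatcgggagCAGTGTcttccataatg
Tfrc-3: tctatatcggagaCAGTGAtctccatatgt
Tfrc-4: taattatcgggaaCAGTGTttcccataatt

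Of 21575 coding genes, 36 (0.167%) held a match in a 5′ UTR and 124 (0.575%) in a 3′ UTR. Among the wider set of iron genes described further on, Alas2 held a match in the 5′ UTR and Bola3 in the 3′ UTR. A match describes the letters only. Binding to these hairpins was not measured here, nor were the protein levels that those in a 5′ UTR control. The pattern is strict, so a member without a match may still hold an iron-responsive element.

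Across the 4 treatments, most values of the 10 genes stayed within a log2 fold change of 1 of Untreated cells. At a log2 fold change over 1 in size (on TMM-normalized CPM plus 0.5), 1 member passed with BLA, 0 with BLU, 1 with BLA-A and 0 with BLU-A. Of all 17647 genes, 16.5% passed with BLA (7.94% higher, 8.52% lower), 10.3% with BLU (5.67% higher, 4.6% lower), 20.9% with BLA-A (8.57% higher, 12.4% lower) and 7.85% with BLU-A (3.35% higher, 4.5% lower). The member in BLA was Gpx4 and the member in BLA-A was Slc40a1, both lower than in Untreated cells. Of the BLA-A calls over all genes, 40.9% were higher with TMM and 28.4% with total-count scaling. In bulk RNA, fewer cells with a transcript and less of it per cell cannot be told apart. At a 1.5-fold change, 3 of the 10 passed in BLA against 36.3% of all genes, with Slc40a1 higher and Fth1 and Gpx4 lower. In BLA-A 4 passed against 43.3%, with Slc11a2 higher and Ftl1, Slc40a1 and Gpx4 lower. None of the 10 passed that fold in BLU, where 26.9% of all genes did, or in BLU-A, where 20.4% did. The median size of the members' log2 fold change was 0.20 with BLA, 0.40 with BLU, 0.28 with BLA-A and 0.14 with BLU-A, and over all genes it was 0.41, 0.33, 0.49 and 0.24. Over the 5 libraries, the distance between the highest and the lowest library had a median of 0.62 on the log2 scale for the 10 genes and 0.97 for all genes. The all-gene set needs 1 CPM in any library and so includes genes with few counts. The members were not set against genes of similar count.

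**Figure D1:**
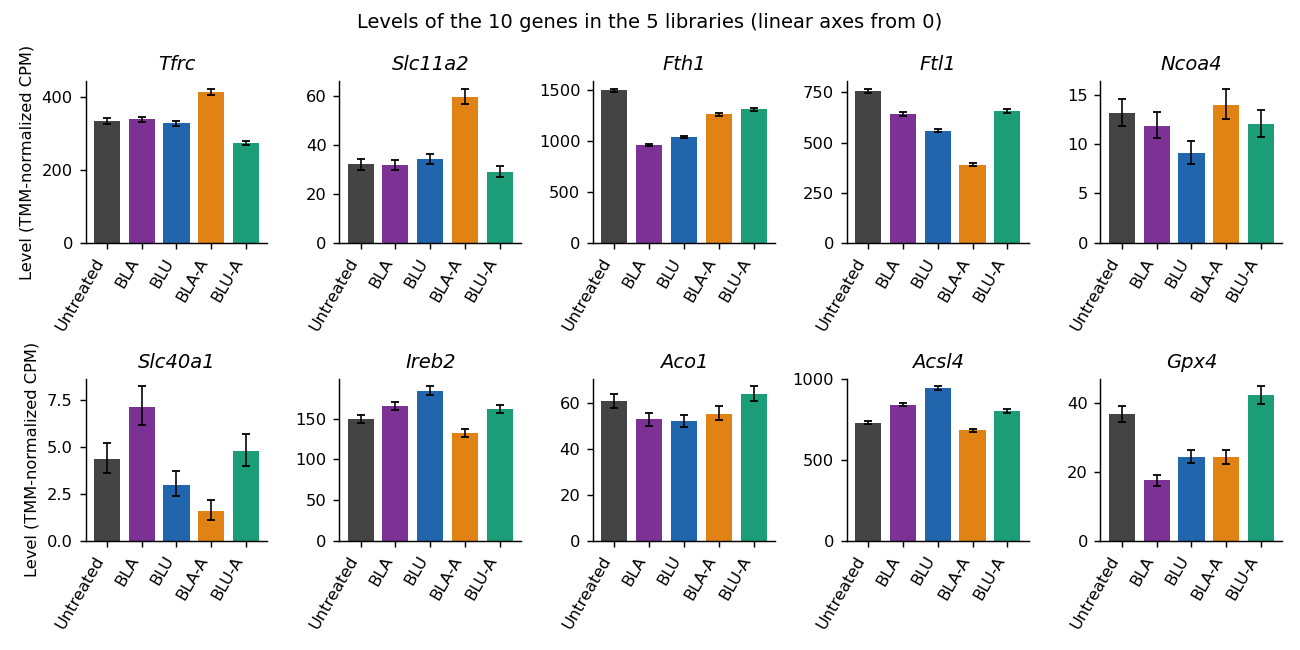
Level of each gene in the 5 libraries, in TMM-normalized CPM on linear axes that start at 0 and differ between genes. Bars are single libraries, each the mean of 3 columns, and error bars are exact Poisson 95% intervals. Fth1 and Ftl1 were highest in Untreated cells, Gpx4 was lowest in BLA, and Slc11a2 stood at 59.8 CPM in BLA-A against 29.2 to 34.2 elsewhere.

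Per kilobase of annotated exon, the 10 genes spanned a wide range of levels in Untreated cells. Ftl1 stood at 565 CPM per kb and Fth1 at 425, followed by Acsl4 at 122.7 and Tfrc at 47.2. Gpx4 (21.3), Ireb2 (13.3) and Aco1 (7.69) were intermediate, and Slc11a2 (2.90), Ncoa4 (1.31) and Slc40a1 (0.46) were low. Reads in introns were counted with the gene, and reads that fit several places were not counted, so these per-length levels are approximate. In 100-base windows along the transcript, 82.8% for Ftl1, 60.5% for Gpx4 and 44.9% for Ncoa4 had a near-identical copy (at most 1 mismatch) elsewhere in the genome, against 1.2% for Fth1 and 0% for the other 6. The values of Ftl1, Gpx4 and Ncoa4 therefore come from the parts of these genes that are unlike their copies, and are less certain. The pseudogene Ftl1-ps2 had at most 2 counts in any library. Since reads that fit several places were not counted, this number does not show how much of it was transcribed.

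Tfrc encodes the transferrin receptor, the main route of iron into dividing cells. It lies at chr16:32427556-32451612 on the + strand. Its counts were 8901 in Untreated cells, 9226 with BLA, 9019 with BLU, 9582 with BLA-A and 7235 with BLU-A. In CPM these were 333.7, 338.8, 327.2, 413.7 and 273.0, so BLA-A was the highest library and BLU-A the lowest. The log2 fold change against Untreated cells was 0.31 (0.27 to 0.35) in BLA-A and -0.29 (-0.33 to -0.24) in BLU-A. In BLA (0.02) and BLU (-0.03) the level was within counting error of Untreated cells.

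Slc11a2 encodes the divalent metal transporter DMT1, which moves ferrous iron from the endosome into the cytosol. The gene spans chr15:100285776-100322953 on the − strand and had 857 counts in Untreated cells, 869 with BLA, 944 with BLU, 1386 with BLA-A and 773 with BLU-A. BLA-A stood apart at 59.84 CPM, and the other 4 libraries lay between 29.16 and 34.25 CPM with neighbours that overlapped within counting error. The log2 fold change in BLA-A was 0.89 (0.76 to 1.01), a 1.85-fold higher level. It ranged from 0.69 with total-count scaling to 1.07 with a filter of 10 counts, which changes the TMM factor of BLA-A.

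Fth1 and Ftl1 encode the ferritin heavy chain, which oxidizes iron, and the light chain, which helps to form the mineral core. Fth1 (chr19:9957911-9962462, + strand) had 39889 counts in Untreated cells, 26159 with BLA, 28649 with BLU, 29196 with BLA-A and 34631 with BLU-A. At 1495, 960.7, 1039, 1260 and 1307 CPM in the same order, Untreated cells were the highest library and BLA the lowest. The log2 fold changes of Fth1 were -0.64 (-0.66 to -0.62) with BLA, -0.52 (-0.55 to -0.50) with BLU, -0.25 (-0.27 to -0.22) with BLA-A and -0.19 (-0.22 to -0.17) with BLU-A. The BLA value corresponds to a 1.56-fold lower level. Under the alternative scalings and filters the BLA-A value ran from -0.44 to -0.06.

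Ftl1 (chr7:45107367-45109308, − strand) had 20204 counts in Untreated cells, 17478 with BLA, 15417 with BLU, 9015 with BLA-A and 17445 with BLU-A. Its CPM of 757.5 in Untreated cells stood above 641.9 with BLA, 559.3 with BLU, 389.2 with BLA-A and 658.2 with BLU-A. Here BLA-A was the lowest library, with a log2 fold change of -0.96 (counting half-width 0.04), a 1.95-fold lower level. This value sat just inside the limit of 1 and passed it with total-count scaling (-1.15). The other log2 fold changes of Ftl1 were -0.24 with BLA, -0.44 with BLU and -0.20 with BLU-A.

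Both ferritin chains were thus highest in the Untreated library, which the 4 comparisons share, and the library with the lowest level differed between the chains. The count ratio of Fth1 to Ftl1 was 1.97 (1.94 to 2.01) in Untreated cells, 1.497 (1.47 to 1.53) with BLA, 1.86 (1.82 to 1.90) with BLU, 3.24 (3.16 to 3.32) with BLA-A and 1.99 (1.95 to 2.02) with BLU-A. This ratio needs no scaling between libraries, and its intervals overlapped only between Untreated cells and BLU-A. The count ratio of Tfrc to Fth1, an uptake gene against a storage gene, was 0.223 in Untreated cells and 0.209 in BLU-A, and was higher in BLA (0.353), BLU (0.315) and BLA-A (0.328). The lncRNA Gm36913, which overlaps Fth1 on the opposite strand, had 74 to 133 counts.

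Ncoa4 encodes the receptor that carries ferritin into autophagosomes. The gene (chr14:31881822-31902234, + strand) had few counts, with 350 in Untreated cells, 322 with BLA, 250 with BLU, 324 with BLA-A and 319 with BLU-A. BLU was the lowest library at 9.07 CPM against 13.12 in Untreated cells, a log2 fold change of -0.51 (-0.74 to -0.28). The other 4 libraries, between 11.83 and 13.99 CPM, did not differ from their neighbours beyond counting error. Timm23 overlaps Ncoa4 by 116 bases on the opposite strand and had 522 to 832 counts. The study's methods give counting by strand, yet Hspa5 and its opposite-strand neighbour Rabepk had near-equal counts (66128 and 62155 in Untreated cells). Gpx8 and Cdc20b, also on opposite strands, were near-equal as well (1750 and 1794 in Untreated cells). The strand of counting is therefore uncertain. Other pairs were far from equal, such as Fth1 and Gm36913 above.

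Slc40a1 encodes ferroportin, the only known exporter of iron from mammalian cells. It was the least abundant of the 10 genes and the one whose libraries lay farthest apart. The gene (chr1:45947211-45965683, − strand) had 116 counts in Untreated cells, 194 with BLA, 82 with BLU, 36 with BLA-A and 126 with BLU-A. BLA was highest at 7.12 CPM (6.16 to 8.20) and BLA-A lowest at 1.55 CPM (1.09 to 2.15), a 4.58-fold distance, while Untreated cells (4.35 CPM) and BLU-A (4.75 CPM) lay within counting error of each other. The log2 fold change was 0.65 (0.32 to 0.98) with BLA, -0.48 (-0.89 to -0.07) with BLU, -1.24 (-1.78 to -0.70) with BLA-A and 0.12 (-0.25 to 0.48) with BLU-A. With a pseudocount of 2 CPM the BLA-A value was -0.84 and no longer passed. The 5-library distance of 1.89 on the log2 scale was larger than that of 89.2% of all genes tested, at the lowest counts of the 10 genes.

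Ireb2 and Aco1 encode the iron regulatory proteins IRP2, which is degraded when iron is plentiful, and IRP1, which doubles as the cytosolic aconitase. Ireb2 (chr9:54770970-54820011, + strand) had 3995 counts in Untreated cells, 4523 with BLA, 5100 with BLU, 3067 with BLA-A and 4295 with BLU-A. BLU was highest at 185.0 CPM and BLA-A lowest at 132.4 CPM. The log2 fold change was 0.30 (0.24 to 0.36) with BLU, 0.15 with BLA, 0.11 with BLU-A and -0.18 with BLA-A. The BLA-A direction turned to 0.01 with a filter of 10 counts.

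Aco1 (chr4:40142998-40199010, + strand) had 1616 counts in Untreated cells, 1436 with BLA, 1432 with BLU, 1281 with BLA-A and 1696 with BLU-A. It was the steadiest of the 10 genes, between 51.95 and 63.99 CPM, with log2 fold changes of -0.20 with BLA, -0.22 with BLU, -0.13 with BLA-A and 0.08 with BLU-A. Only 4.7% of all genes had a smaller distance between their highest and lowest library. The BLA-A value of Aco1 turned to 0.06 with a filter of 10 counts. The count ratio of Ireb2 to Aco1 was 2.47 (2.33 to 2.62) in Untreated cells, 3.15 (2.97 to 3.34) with BLA, 3.56 (3.36 to 3.78) with BLU, 2.39 (2.24 to 2.56) with BLA-A and 2.53 (2.39 to 2.68) with BLU-A. Both extracts thus lay above the other 3 libraries in this ratio.

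Acsl4 encodes the acyl-CoA synthetase that activates arachidonic and adrenic acid for membrane phospholipids. The gene (chrX:141100840-141173789, − strand) had 19476 counts in Untreated cells, 22953 with BLA, 26012 with BLU, 15805 with BLA-A and 21308 with BLU-A. BLU was the highest library at 943.7 CPM and BLA-A the lowest at 682.3 CPM. The log2 fold change was 0.21 (0.18 to 0.23) with BLA, 0.37 (0.34 to 0.40) with BLU, -0.10 (-0.13 to -0.07) with BLA-A and 0.14 (0.11 to 0.17) with BLU-A. The BLA-A direction turned to 0.09 with a filter of 10 counts.

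Gpx4 encodes the selenoenzyme that reduces lipid hydroperoxides in membranes. The gene (chr10:79883000-79892273, + strand) had 981 counts in Untreated cells, 479 with BLA, 675 with BLU, 561 with BLA-A and 1123 with BLU-A. At 17.59 CPM (16.0 to 19.2) BLA was the lowest library, against 36.78 CPM (34.5 to 39.2) in Untreated cells, a 2.06-fold lower level. BLU (24.49 CPM) and BLA-A (24.22 CPM) lay within counting error of each other, and BLU-A was the highest at 42.37 CPM. The log2 fold change was -1.04 (-1.20 to -0.89) with BLA, -0.58 (-0.72 to -0.44) with BLU, -0.59 (-0.74 to -0.44) with BLA-A and 0.20 (0.08 to 0.33) with BLU-A. The BLA interval spans the limit of -1. The BLA-A value sat at the 1.5-fold limit and was -0.41 with a filter of 10 counts. BLU-A was therefore the only treatment in which Gpx4 was above Untreated cells.

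**Figure D2:**
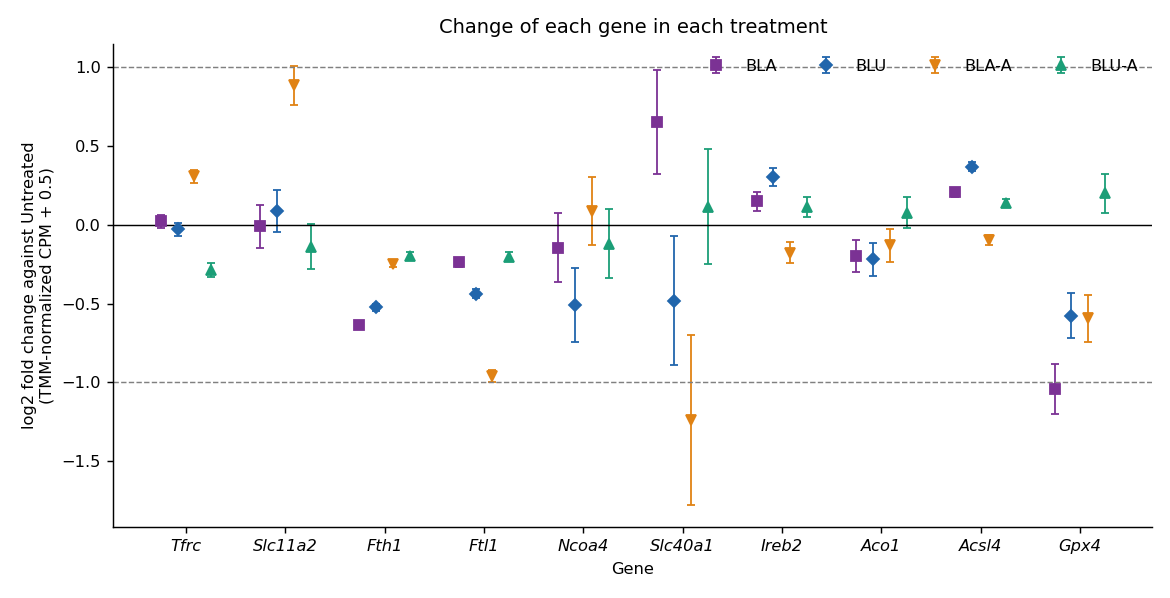
log2 fold change of each gene against the Untreated library, on TMM-normalized CPM plus 0.5, for the 4 treatments. Points are single libraries, error bars are 95% counting intervals and dashed lines mark log2 fold changes of 1 and -1. Gpx4 in BLA (-1.04) and Slc40a1 in BLA-A (-1.24) lie beyond the dashed lines, and the 4 points of Fth1 and of Ftl1 lie below 0.

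Ordered by level, the 5 libraries give 40 neighbouring pairs over the 10 genes, of which 26 differed beyond counting error and 14 did not. With 1 library per condition, the spread between cultures is unknown and the p-value of any single treatment cannot be computed. As a group, the 4 treated libraries were set against the Untreated library in edgeR (quasi-likelihood test, adjusted over 17647 genes by Benjamini-Hochberg). In this test 0.0227% of all genes passed an adjusted p of 0.05 (4 genes, with 481 at an unadjusted p under 0.05), and 0 of the 10 members did. This comparison treats 4 different treatments as replicates of 1 group against a single library, so differences between treatments enter its error, and a p that misses the threshold does not show that a member was unchanged. The smallest unadjusted p among the members was 0.152, for Fth1, and its adjusted p in the edgeR test was 0.999. The fitted log2 change over the 4 treatments was -0.39 ± 0.25 (SE) for Fth1, -0.43 ± 0.31 for Ftl1, -0.44 ± 0.45 for Gpx4 and 0.27 ± 0.44 for Slc11a2. For the other 6 genes it lay between -0.16 and 0.16.

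The gold nanoparticle was next set against the plain extract of the same berry. For blackberry, 1 of the 10 genes passed a log2 difference of 1, against 24.5% of all genes, and for blueberry 0 did, against 6.76%. Slc40a1 was the gene that passed, at 1.55 CPM in BLA-A and 7.12 CPM in BLA, a log2 difference of -1.89 (-2.41 to -1.38). Slc11a2 followed at 0.90 (0.77 to 1.02), with 59.84 CPM in BLA-A and 31.91 in BLA, and Ftl1 at -0.72 (-0.76 to -0.68), with 389.2 and 641.9 CPM. For blueberry the largest difference was that of Gpx4, at 42.37 CPM in BLU-A and 24.49 in BLU, a log2 difference of 0.78 (0.64 to 0.92). Slc40a1 followed at 0.60 (0.20 to 1.00).

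In 6 of the 10 genes the nanoparticle lay on the same side of its extract for both berries, beside 57.9% of all genes. Fth1 was higher with the nanoparticle (0.39 for blackberry, 0.33 for blueberry), as were Gpx4 (0.45 and 0.78) and Ncoa4 (0.23 and 0.39). Acsl4 was lower with the nanoparticle (-0.30 and -0.23), as was Ireb2 (-0.33 and -0.19). Aco1 was at 0.07 (-0.04 to 0.18) for blackberry, within counting error and at -0.09 with total-count scaling, and at 0.30 for blueberry. The remaining 4 genes, Tfrc, Slc11a2, Ftl1 and Slc40a1, lay on opposite sides for the 2 berries, beside 41.3% of all genes. These pairs share no library, but each has 1 library a side, so whether the berries differ was not tested.

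**Figure D3:**
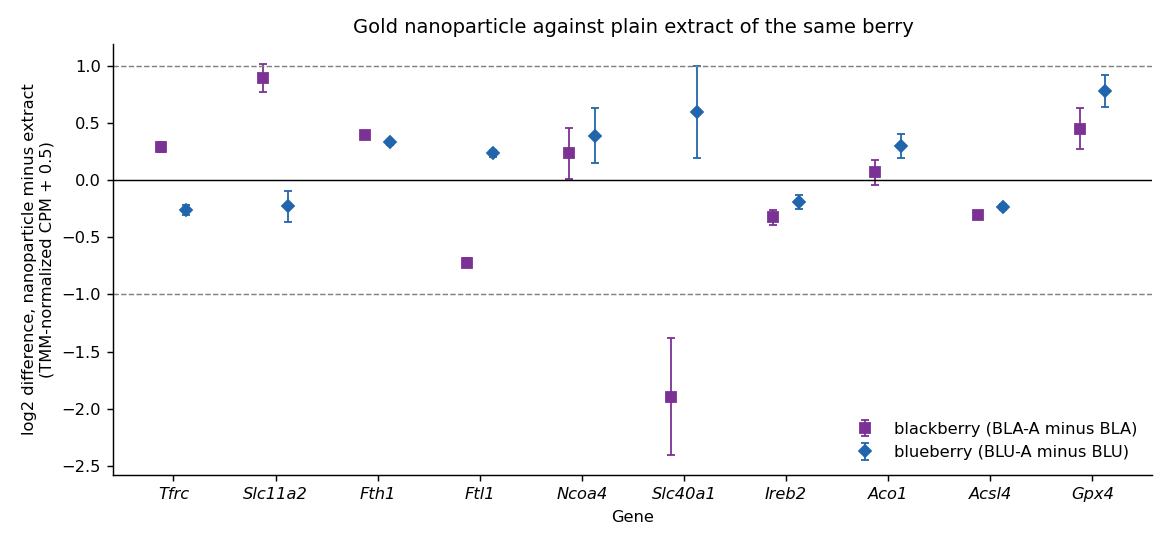
log2 difference between the gold nanoparticle and the plain extract of the same berry for each gene, on TMM-normalized CPM plus 0.5. Each point compares 1 library with 1 library, error bars are 95% counting intervals and dashed lines mark 1 and -1. Only Slc40a1 for blackberry (-1.89) lies beyond a dashed line, and Tfrc, Slc11a2, Ftl1 and Slc40a1 have points on both sides of 0.

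The members were then placed among 157 other genes of iron handling and ferroptosis in 13 lists, of which 140 were expressed enough to be tested. Past a log2 fold change of 1 were 13 of these (4 higher, 9 lower) with BLA, 5 (1 and 4) with BLU, 26 (19 and 7) with BLA-A and 3 (3 and 0) with BLU-A. As shares, these are 9.29%, 3.57%, 18.6% and 2.14%, each below the share of all genes given above. By direction this differed in BLA-A, where 13.6% of the listed genes were higher against 8.57% of all genes and 5.0% were lower against 12.4%. The median log2 fold change of the 140 genes was -0.05, -0.11, 0.24 and -0.02 in the same order, beside -0.01, -0.01, -0.01 and 0.00 over all genes. In the edgeR test of the 4 treated libraries, each of the 32 genes named from the lists for passing a log2 fold change of 1 had an adjusted p of 0.999. Of these 32 genes, 15 overlap another gene of the table. The counts of 6 of these partners are given below, chosen after their values were seen. Numbers of genes passing in single lists, below, are to be read beside the shares of all genes given earlier.

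Among the genes of transferrin and iron uptake, 10 of 13 were tested and 1 was higher with BLA, 1 with BLA-A and 1 with BLU-A. Steap3, the endosomal reductase that acts ahead of DMT1, had 207 counts in Untreated cells and 638 in BLA-A, a log2 fold change of 1.76, with 192 to 295 counts in the other treatments. Slc22a17, a receptor for the siderophore carrier lipocalin-2, had 10 counts in Untreated cells, 48 with BLA and 45 with BLU-A, but 12 with BLU and 3 with BLA-A. Transferrin itself (Trf) had at most 19 counts in any library.

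Among the storage and chaperone genes, 1 of 4 tested was lower in BLA and none passed elsewhere. Pcbp4, of the family that delivers iron to ferritin, had 827 counts in Untreated cells, 348 in BLA and 1158 in BLA-A, with log2 fold changes of -1.25 and 0.68. In the export and hepcidin axis, 2 of 6 tested genes were lower with BLA, 1 was lower with BLU and 2 were higher with BLA-A. Bmp6, the ligand that induces hepcidin in liver, had 86 counts in Untreated cells, 25 in BLA and 644 in BLA-A, with log2 fold changes of -1.39 and 2.93. It overlaps the abundant Txndc5 on the opposite strand by 226 bases, which had 4409, 3862 and 7554 counts in these libraries. Hfe, a partner of the transferrin receptor, had 53 counts in Untreated cells and 0 with BLA, 4 with BLU, 53 with BLA-A and 55 with BLU-A. Neo1, a co-receptor in this axis, was higher in BLA-A (1.02).

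Among the ferritinophagy genes, Atg9a, an autophagosome membrane protein, was the 1 of 6 that passed, with 653 counts in Untreated cells and 2410 in BLA-A (2.07), where its opposite-strand neighbour Ankzf1 had 531 and 508. Among the iron sensing genes, Alas2, the erythroid enzyme that begins heme synthesis, had 360 counts in Untreated cells, 988 with BLA, 841 with BLU, 460 with BLA-A and 763 with BLU-A. Its log2 fold changes were 1.39, 1.15, 0.54 and 1.07, with an unadjusted p of 0.0292 and an adjusted p of 0.999 in the edgeR test. The annotated span of Alas2 overlaps Apex2, a DNA repair gene on the opposite strand, by 23264 bases. Apex2 had 1417, 3150, 2859, 1490 and 2187 counts in the same order of libraries, and the erythroid genes named above were at 0. The counts of Alas2 are uncertain for that reason. Skp1, part of the ubiquitin ligase that degrades IRP2, was lower in BLA-A (-1.35), with 5352 counts in Untreated cells and 1813 in BLA-A.

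In the heme list 3 of 18 genes were higher and 2 lower with BLA-A, and 1 was lower with BLA and 1 with BLU. Hmox1, the heme oxygenase that frees iron from heme, had 96 counts in Untreated cells, 205 with BLA, 108 with BLU, 525 with BLA-A and 131 with BLU-A, with log2 fold changes of 0.97, 0.11, 2.50 and 0.41. Alad, the next enzyme of heme synthesis (1.62), and the heme and folate transporter gene Slc46a1 (1.72) were higher in BLA-A as well, and Flvcr2 was lower (-1.45). Slc46a1 had 45 counts in Untreated cells and 155 in BLA-A, and Sarm1, which overlaps it on the opposite strand, had 70 and 115. Of 26 tested genes of mitochondrial iron and iron-sulfur clusters, 3 were lower and 1 higher with BLA, 1 was lower with BLU, 2 were higher with BLA-A and 1 with BLU-A. Iscu, the scaffold on which clusters are built, had 226 counts in Untreated cells and 68 in BLA (-1.58), and 286 to 302 in the other treatments. Bola3 was lower with BLA (-1.24), Ciao2b was higher with BLA-A (2.25), and Iba57 had 19 counts in Untreated cells and 87 with BLA.

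Of 17 ferroptosis defence genes, none passed in BLA, BLU or BLU-A, and in BLA-A 2 were higher and 3 lower. Slc3a2, the heavy chain of the cystine importer, was higher in BLA-A (1.22), with 1643 counts in Untreated cells and 3331 in BLA-A. Dhcr7, which consumes the antioxidant sterol 7-dehydrocholesterol, was higher there too (1.27). Gch1, which begins the synthesis of the antioxidant tetrahydrobiopterin, was lower in BLA-A, at 309 counts against 1177 (-1.69). Coq2, of coenzyme Q synthesis, had 372 counts against 1093 (-1.32). These defence genes thus lay on both sides of Untreated cells in BLA-A.

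Among the lipid substrate and oxygenase genes, 3 of 15 tested were higher in BLA-A and 1 was lower in BLU. Fads2, a desaturase of polyunsaturated fatty acids, was higher in BLA-A (1.66), as were Lpcat3 (1.43), which places such fatty acids in phospholipids, and Por (1.40), an oxidoreductase. Lpcat3 overlaps Emg1 by 42630 bases, and Emg1 had 1138 counts in Untreated cells and 1185 in BLA-A. Alox5, a lipoxygenase, had 19 counts in Untreated cells and 1 in BLU. Of 9 transcripts often used as ferroptosis markers, 4 were higher in BLA-A and 1 in BLA, beside 8.57% and 7.94% of all genes. Ptgs2 had 10196 counts in Untreated cells and 24262 in BLA-A (1.45), Chac1 318 and 925 (1.70), Ddit4 488 and 2145 (2.31), and Atf3 1150 and 3373 (1.74). Atf3 was also the marker that passed in BLA (1.21), and these genes respond to several kinds of stress besides ferroptosis. The markers that did not pass in BLA-A were Sat1 (0.33), Vdac2 (0.10), Vdac3 (-0.18), Trib3 (-0.18) and Hmgb1 (-0.39).

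Of 13 tested selenoproteins and factors of their synthesis, Selenof was higher in BLA-A (1.32) and no other passed. In the glutathione peroxidase family Gpx8 was lower with BLA (-1.45), with 1750 counts in Untreated cells and 645 with BLA, and its values with BLU, BLA-A and BLU-A were -0.81, -0.59 and -0.48. Cdc20b, which overlaps Gpx8 by 4464 bases on the opposite strand, had 1794 counts in Untreated cells and 696 in BLA, so the counts of Gpx8 are uncertain as well. In the acyl-CoA synthetase family Acsl6 was lower in BLA (-1.20) and in BLA-A (-1.11).

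**Figure D4:**
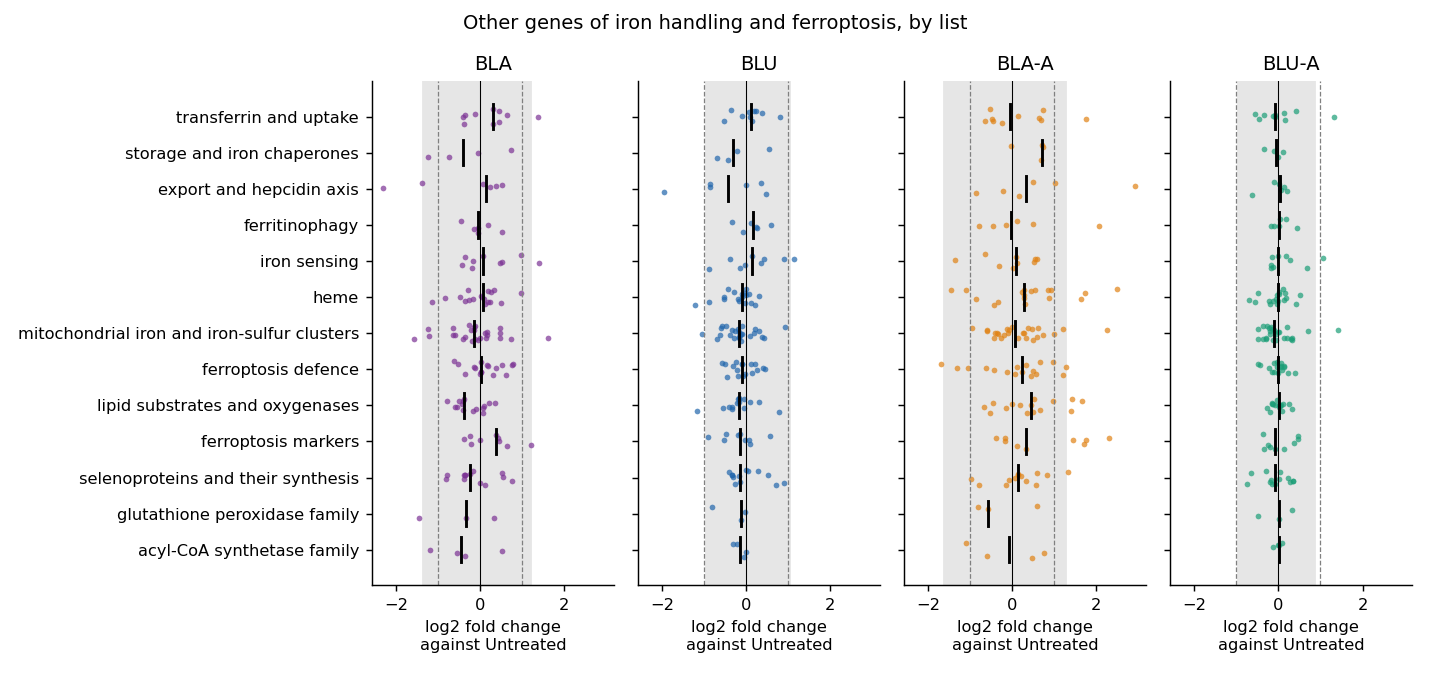
log2 fold change against the Untreated library of 140 other genes of iron handling and ferroptosis, by list and treatment. Points are genes, black bars are list medians, dashed lines mark 1 and -1, and the grey band holds the central 90% of all 17647 genes. Points spread most widely in BLA-A, where 26 lie beyond the dashed lines, and least in BLU-A, where 3 do.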

How the data were processed

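Reads from 4T1 cells were processed by the authors, who removed ribosomal RNA, used STAR for alignment to GRCm39, and then counted reads over each whole gene with its introns (OmicsBox, by strand), leaving out multi-mapping reads. The deposited counts are whole numbers, not normalized, in a table of 40402 genes by 15 columns. The authors also deposited their own comparison and enrichment tables (fold changes, p-values and scores), which were not used.

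The 3 columns of a condition agreed within sampling noise (chi-square per degree of freedom under 1.5 over genes averaging 10 or more counts). They were averaged, rounded and used as 1 library, so the labelled replicates were not treated as independent cultures. Genes reaching 1 CPM in any library were kept. TMM factors came from edgeR 4.0.16, and 0.5 was added to CPM before taking log2. Counting intervals came from Poisson error at 95%. A floor of 3 counts corresponds to 0.111 to 0.117 CPM. The 4 treated libraries were compared with Untreated by the edgeR quasi-likelihood test (3 residual degrees of freedom), with DESeq2 1.42.0 as an alternative. R 4.3.3, Python 3.11.15 and pandas 2.3.3 were used.

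Positions and hairpins came from GENCODE M39 on GRCm39, and copies of 100-base windows (step 10) from minimap2 2.31. The text names the members, up to 4 genes per list past a log2 fold change of 1, overlapping genes and cell markers. Trf, the ferroptosis markers that did not pass and the overlapping genes of listed genes were added outside that rule with their values in view. The members and lists were chosen with earlier results of these data known. Alternatives covered the normalization, pseudocount, filter, columns and test. The same settings for nanoparticle against extract were added after seeing the data. A few listed genes and markers are not reported here.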

Additional observations from a re-analysis of the deposited data

Results flagged for a closer look

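In 4 of the 10 genes the gold nanoparticle and the plain extract differed in opposite directions for the 2 berries, as in 41.3% of all genes. Whether the berries differ was not tested, since each side is 1 library. The log2 difference, nanoparticle minus extract, of Slc40a1 was -1.89 for blackberry and 0.60 for blueberry. For Slc11a2 it was 0.90 and -0.23, for Ftl1 -0.72 and 0.23, and for Tfrc 0.29 and -0.26. None of these signs changed under the alternative scalings, filters and pseudocounts tried.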

How the results depend on the processing

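Each member was recomputed under 11 other settings. Of the log2 fold changes of each member, 389 of 440 values moved by less than their counting interval and 51 by more, and no value past 1 in size changed sign. In BLA-A, Ncoa4, Ireb2, Aco1 and Acsl4 changed sign with total counts or a filter of 10 counts, as did Tfrc and Slc11a2 in BLA, all at sizes under 0.4. The number of members past a log2 fold change of 1 in BLA-A rose to 2 with total counts, with the upper quartile and with 1 CPM in every library (Ftl1), and to 2 with at least 10 counts (Slc11a2). A pseudocount of 2 CPM left 0 in BLA and 0 in BLA-A. Past 1.5-fold in BLU, 1 member (Gpx4) passed with DESeq2 size factors, total counts or the upper quartile, and 0 to 1 without 1 column of each condition. In BLA-A the 4 members past 1.5-fold became 3, without Gpx4, with DESeq2 size factors, a pseudocount of 2 CPM, no filter, at least 10 counts, or without column 2 or 3. In BLA the 3 became 2, without Slc40a1, with a pseudocount of 2 CPM. Slc11a2 made 2 members past 1 in BLA-A minus BLA with at least 10 counts. For all genes, a pseudocount of 0.1 CPM gave 2743 in BLU and 2367 in BLU-A. With 2 CPM it was 942 with BLA, 400 with BLU, 1861 with BLA-A and 209 with BLU-A, and with 1 CPM in every library 1085, 568, 1833 and 277.

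For the 4 treated libraries together, 17 genes passed with the DESeq2 Wald test, 2 with 1 CPM in every library, and 3 to 45 when 1 treated library was left out, the 45 without BLA-A. No member passed in any of these. Without BLA-A the fitted change was -0.09 for Tfrc, -0.02 for Slc11a2 and 0.19 for Slc40a1, and without BLU it was 0.05 for Slc40a1. Tfrc was at -0.05 with total counts and -0.02 with 1 CPM in every library. Taking the 15 columns as samples gave 3808 genes without a replicate block and 2737 with it. Fth1 passed only without the block (-0.37, edgeR adjusted p 0.0463). The columns of a condition agreed within sampling noise, so this setting counts each library 3 times and its p-values are not valid. The column numbers do not pair the columns, since same-numbered columns had a mean correlation of -0.00111 over 30 pairs, with 0 over 0.1. With 36 counts in its lowest library, Slc40a1 is the member whose depth limits it most.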
